A study of Homo sapiens with 8 samples.

Results

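The small nucleolar RNAs and the other small structured RNAs of the cell were followed through a study of the long noncoding RNA MALINC1 in human breast cells. Members were taken by symbol alone: names beginning with SNORA or SNORD and a digit (small nucleolar RNAs), SCARNA and a digit (Cajal body RNAs), RNU and a digit (spliceosomal RNAs), RN7S (RNAs of the signal recognition particle and 7SK) or VTRNA (vault RNAs), and the names RMRP and RPPH1. The rule found 144 members among the 13842 rows of the deposited table, of which 49 were H/ACA RNAs, 61 C/D RNAs, 12 Cajal body RNAs, 16 spliceosomal RNAs and 6 others. All 144 passed the filter on low values that the authors had applied.

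The study set out to learn which genes change when MALINC1 is overexpressed in a normal-like and in a pre-invasive breast line. MCF10A is an immortalised, non-tumorigenic breast epithelial line, and DCIS.COM is a line of the same lineage that forms ductal carcinoma in situ in mice. Each was stably transduced with the lentiviral vector pLOC, either empty or carrying MALINC1, and selected with blasticidin, so that the controls carry the vector and the selection too. RNA-seq gave 2 libraries for each of the 4 groups: MCF10A with the empty vector, MCF10A with MALINC1, DCIS.COM with the empty vector and DCIS.COM with MALINC1. Nothing says that the 2 libraries of a group came from separate cultures, so the p-values measure only the spread between these libraries, which may be technical. That spread is shared by all 4 groups and drawn towards that of other rows, so it is not the spread of a single group. The medium of MCF10A held epidermal growth factor, hydrocortisone, insulin and cholera toxin beside horse serum and that of DCIS.COM held serum alone, so line and medium cannot be told apart.

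Small nucleolar RNAs guide the chemical modification of other RNAs. C/D RNAs carry a C box and a D box and direct methylation of the ribose, and H/ACA RNAs carry an H box and an ACA end and direct the conversion of uridine to pseudouridine, in both cases mainly on ribosomal RNA. Their Cajal body relatives do the same for the spliceosomal RNAs. In human cells most of them are not transcribed alone: they are cut out of introns of a host gene, often one that codes for a ribosomal protein or another part of the translation machinery, or a long noncoding RNA whose spliced product has little coding potential. The spliceosomal RNAs, U3, 7SK, the signal recognition particle RNA, the vault RNAs and the RNA subunits of RNase P and RNase MRP have promoters of their own, many of them read by RNA polymerase III.

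The libraries held 20604377 to 37550457 reads in the table. MALINC1 itself stood at 1 and 1.51 CPM (reads scaled to the authors' effective library size) in MCF10A with the empty vector and at 13.2 and 11.7 CPM with MALINC1, and at 1.35 and 1.15 against 24.5 and 19.2 CPM in DCIS.COM, in the direction of the labels. All 8 epithelial markers examined were expressed in both lines, and of 9 leukocyte, endothelial and fibroblast markers 6 (PTPRC, CD3E, VWF, CDH5, COL1A2 and PDGFRB) were not in the table. Of the other 3, CD14 stood at 0.573 to 4.27 CPM, COL1A1 at 1.51 to 15.9 CPM, and PECAM1 at 6.06 and 7.21 CPM in DCIS.COM with the empty vector, 0.0874 and 0.177 CPM there with MALINC1 and 0.680 to 1.03 CPM in MCF10A. Their part in the results was not tested. In such bulk samples fewer cells of a type and less RNA per cell cannot be told apart.

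The members took 10.8% to 19.1% of the reads of a library, and most of that came from 2 copies of a single RNA. RN7SL1 and RN7SL2, copies of the RNA of the signal recognition particle that docks ribosomes at the endoplasmic reticulum, together held 8.22% to 15.7% of all reads, and the other 142 members together 2.36% to 3.33%. Per kilobase of RNA (mean CPM over the 8 libraries divided by the RefSeq length), RN7SL1 stood at 206940 CPM per kb and RN7SL2 at 200940. They were followed by RMRP, the RNA of RNase MRP, at 24359, then RN7SK, which holds the elongation kinase P-TEFb inactive, and RPPH1, the RNA of RNase P, at 22806 and 22178. The order of these last 3 differed between the groups: RN7SK led in MCF10A with the empty vector, at 28151, and RMRP in the other 3 groups.

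Within the classes the leading RNAs on the per-length scale, by the mean over all libraries, were these. SNORD3A, a copy of U3 that is needed for the first cuts of the ribosomal precursor, led the C/D RNAs at 7838 CPM per kb, ahead of its copies SNORD3C at 2828 and SNORD3B-2 at 2207. SNORA73A and SNORA73B, the 2 copies of U17, which also serves the processing of the small-subunit ribosomal RNA, led the H/ACA RNAs at 2268 and 1250, with SNORA63 far behind at 316. RNU2-2P, a U2 gene, stood first among the spliceosomal RNAs at 1429, followed by the U1 rows RNU1-28P and RNU1-1 at 1206 and 1205, and the Cajal body RNAs were led by SCARNA2 at 204, SCARNA12 at 182 and SCARNA10 and SCARNA7 both at 178. The order of the Cajal body RNAs differed between the groups, with SCARNA10 first in MCF10A with the empty vector (198) and SCARNA12 first in DCIS.COM with the empty vector (236). Most members lay far lower. The median member had a mean of 2.29 CPM, against 22.1 CPM for the median row of the table, and 101 of the 144 had a mean below 5 CPM. Of the 74 members that could be placed on GRCh37 together with a host gene, 42 overlap an exon of some host transcript, and whether the counting used strand is not given in the sources used here, so reads of a mature small RNA and of its host cannot be told apart.

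Some members are copies that cannot be told apart. The 6 U1 rows had 100% identical sequences of 164 bases on GRCh37 and differed by at most 0.05 on the log2 scale in any library, and the same held for RNU6-1 with RNU6-6P. SNORD3B-1 and SNORD3B-2 also differed by at most 0.05 in any library, but could not be placed, so their sequences were not compared. Each of these sets is in effect a single signal entered several times, and every row of a set still counts in the numbers of members and the class medians. How reads that fit several places were handled is not given in the sources used here, so values of single U1, U3 and RN7SL copies are uncertain.

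The members moved together between libraries of the same group, which bears on every result that follows. In DCIS.COM with MALINC1, 134 of the 144 members were higher in replicate 1 than in replicate 2, by a median of 0.44 on the log2 scale. In MCF10A with the empty vector 115 members were higher in replicate 1, by a median of 0.23, and in DCIS.COM with the empty vector 102, by 0.11, whereas in MCF10A with MALINC1 replicate 1 was the higher in 35 and the median difference was -0.15. The median difference of all 13842 rows was -0.014 in DCIS.COM with MALINC1 and closer to 0 in the other 3 groups. In 2 of the groups the spliceosomal RNAs had the largest gap, a median of 0.88 in DCIS.COM with MALINC1 and 0.67 in MCF10A with the empty vector, ahead of the H/ACA RNAs at 0.47 and 0.32 and the C/D RNAs at 0.35 and 0.20. In the other 2 groups they had the smallest, -0.03 in MCF10A with MALINC1 and -0.05 in DCIS.COM with the empty vector. The counts of members called at the 2-fold threshold are therefore also given with single libraries left out.

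**Figure D1:**
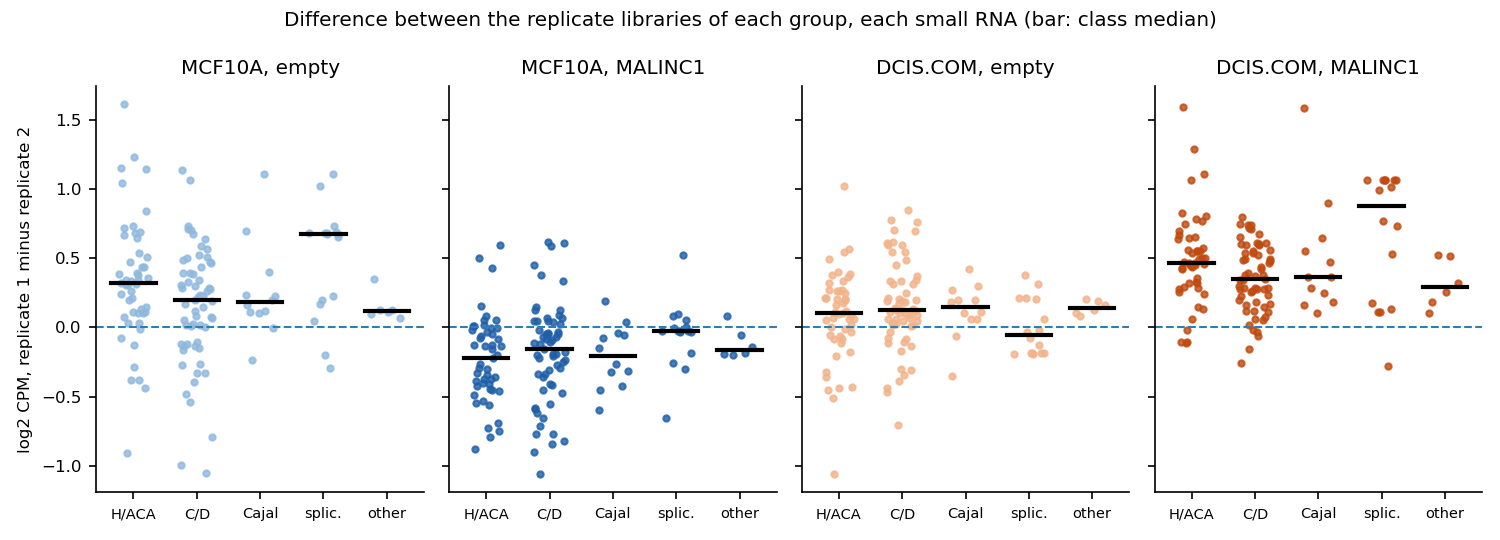
Difference in deposited log2 CPM between the 2 libraries of each group, with a point for each of the 144 small RNAs, arranged by class (splic., spliceosomal), and a bar at the class median. In DCIS.COM with MALINC1 134 of the 144 points lie above 0.

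With MALINC1 in MCF10A most small RNAs had a modest positive fold change. It was positive for 125 of the 144 members, with a median log2 fold change of 0.43 against 0.00 for all rows. C/D RNAs had a median of 0.57, with 60 of 61 positive, H/ACA RNAs 0.44, with 46 of 49 positive, and spliceosomal RNAs 0.39. Of the 16 spliceosomal rows 8 are the U1 and U6 copies, and that median was 0.07 without replicate 2 of the empty vector and 0.87 without its replicate 1. The Cajal body RNAs, at -0.01, and the 6 others, at -0.16, did not share the upward shift.

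Few members passed the test in MCF10A. At an adjusted p below 0.01 (limma, Benjamini-Hochberg over all rows) and a change over 2-fold, 3 of 144 members were called higher and 0 lower, where 2.99% of all rows were called higher and 2.51% lower, so the members' share was near or below the background. With no minimum fold, 17 members were called higher and 3 lower (SCARNA9, RN7SK and SCARNA7), against 21.5% and 18.1% of all rows.

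SNORD78, a C/D RNA of the long noncoding host GAS5, had 0.448 and 0.443 CPM in the libraries with the empty vector and 1.003 and 1.28 CPM with MALINC1. SNORA24, an H/ACA RNA of the long noncoding host SNHG8, had 3.03 and 1.86 CPM against 4.24 and 5.82 CPM. SNORD96A, a C/D RNA of the ribosomal scaffold protein gene RACK1, had 0.862 and 0.974 CPM against 2.06 and 1.85 CPM. In each of the 3, which were picked because they were called, both MALINC1 libraries lay above both controls, as they did in 38.8% of all rows. SNORD78 rose by 1.22 ± 0.26 (log2 fold change ± SE, adjusted p = 0.0020), SNORA24 by 1.04 ± 0.22 (adjusted p = 0.0018) and SNORD96A by 1.04 ± 0.17 (adjusted p = 0.00032). The reads behind SNORD78 were few, 10 to 36 in a library.

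The call count in MCF10A rested on single libraries. It was 11 without replicate 1 of the empty vector, 9 without replicate 1 of MALINC1 and 1 without replicate 2 of MALINC1, and 0 with a pseudocount of 1 CPM. The median over the members stayed between 0.30 and 0.57 whichever MCF10A library was left out, with 113 to 123 members positive.

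Both C/D RNAs that rose could be placed on GRCh37, each overlapping an exon of some transcript of its host. SNORD78 lies on chromosome 1, minus strand, at chr1:173834760-173834824 and SNORD96A on chromosome 5, minus strand, at chr5:180668814-180668892. They are shown to place the boxes that make them C/D RNAs: in capitals are a C box (TGATGA, in the first 20 bases) and a D box (CTGA, in the last 15 bases), and SNORD78 has no exact TGATGA there.
SNORD78: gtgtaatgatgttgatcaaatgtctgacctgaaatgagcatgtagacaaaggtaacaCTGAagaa
SNORD96A: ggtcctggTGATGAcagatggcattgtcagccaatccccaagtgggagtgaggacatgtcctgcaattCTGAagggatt
Both exact boxes were found in 23 of the 36 C/D RNAs that could be placed, and in 0 of the 32 placed H/ACA RNAs, on the strand of the RNA. A match describes these letters and nothing more.

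With MALINC1 in DCIS.COM most small RNAs had a negative fold change, 103 of 144, and 3 classes had medians close to each other and below the rest, whose order changed with single libraries left out. The median log2 fold change was -0.48 over the H/ACA RNAs, of which 40 of 49 were negative, -0.42 over the spliceosomal RNAs, -0.46 over the 6 others, -0.13 over the Cajal body RNAs and -0.09 over the C/D RNAs, against 0.01 over all rows. The spliceosomal median lay at the value of the U1 copies, with RNU1-1 at -0.41 and RNU1-28P at -0.42. Of the 144 members, 10 were called lower and 0 higher, where 3.08% of all rows were called lower and 1.44% higher. Low rows of the whole table were called lower as often as low members: 6.74% of all rows below 5 CPM, against 6.93% of the members below 5 CPM. The 10 were 7 of 49 H/ACA RNAs, 2 of 61 C/D RNAs and 1 of 16 spliceosomal RNAs. With no minimum fold 24 members were called lower and 0 higher, against 16.7% and 16.4% of all rows.

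Nearly all members were lower in replicate 2 of MALINC1 than in replicate 1, and which of the 2 deviates cannot be told. The downward shift of the members in DCIS.COM depended on replicate 2. Without that library 2 members were called lower, SNORA80A and SNORA54, the median over all members was -0.05, with 70 of 144 positive, and the medians by class were -0.39 for the 6 others, -0.25 for the H/ACA RNAs, 0.09 for the spliceosomal RNAs, 0.11 for the C/D RNAs and 0.13 for the Cajal body RNAs. Without replicate 1 of MALINC1 20 were called lower, and without replicate 1 of the empty vector 4 were called lower and 1 higher. Fitted on the DCIS.COM libraries alone, 3 were called lower. SNORA80A and SNORA54 were the members called lower under every alternative tried.

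SNORA80A, an H/ACA RNA of the ribosome biogenesis gene URB1, had 5.27 and 4.96 CPM in DCIS.COM with the empty vector and 0.990 and 0.828 CPM with MALINC1, from 28 to 113 reads. It fell by 2.41 on the log2 scale (SE 0.30, adjusted p = 3.35e-05), a 5.31-fold drop, to the level it had in MCF10A with the empty vector, 0.931 and 0.487 CPM. SNORA54, from the nucleosome assembly gene NAP1L4, had 3.59 and 4.15 CPM against 1.25 and 0.887 CPM and fell by 1.80 (SE 0.23, adjusted p = 4.83e-05), a 3.49-fold drop. In both RNAs, which were picked because they were called, the gap between the groups was larger than that between replicates.

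SNORA71D, from the long noncoding host SNHG17, had 4.76 and 3.63 CPM with the empty vector and 1.75 and 1.15 CPM with MALINC1, and fell by 1.502 (SE 0.27, adjusted p = 0.00074). SNORA48, the best covered H/ACA RNA among those called, from the translation initiation helicase gene EIF4A1, had 41.1 and 38.1 CPM against 20.9 and 14.2 CPM. It fell by 1.20 (SE 0.18, adjusted p = 0.00017). SNORD10, a C/D RNA of the same host, had 14.1 and 13.2 CPM against 8.04 and 5.68 CPM and fell by 1.01 (SE 0.14, adjusted p = 8.56e-05). In all of these the MALINC1 libraries lay below both controls, as they did in 35.4% of all rows, and replicate 2 was the lower.

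The remaining 5 fell by 1.06 to 1.15 on the log2 scale. SNORA8, from the RNA polymerase I factor gene TAF1D, had 4.90 and 3.91 CPM against 2.24 and 1.66 CPM, and SNORA57, from the methyltransferase gene CSKMT, 10.4 and 10.8 CPM against 6.12 and 4.20 CPM. SNORA49, from the chromatin remodeller gene EP400, had 2.71 and 2.39 CPM against 1.57 and 0.887 CPM. SNORD13, or U13, a stand-alone C/D RNA that guides acetylation of the small-subunit ribosomal RNA, had 7.14 and 7.02 CPM against 4.14 and 2.48 CPM. RNU6ATAC, the U6 counterpart of the minor spliceosome, had 1.45 and 1.24 CPM against 0.612 and 0.532 CPM, from 18 to 31 reads, and its adjusted p was 0.0043.

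**Figure D2:**
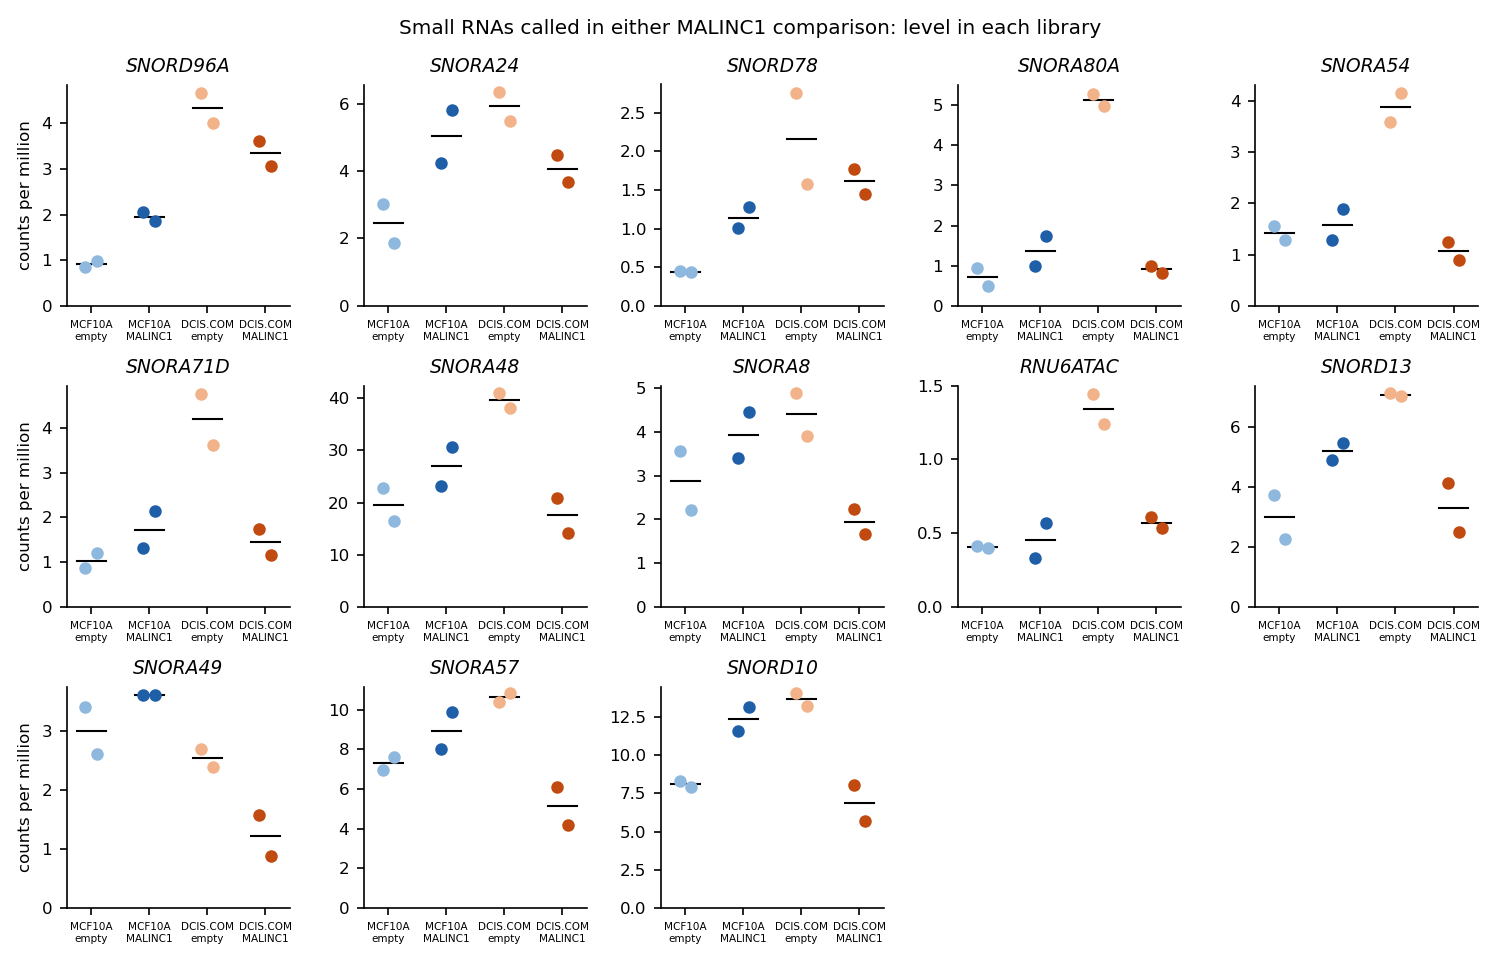
Level in CPM of the 13 small RNAs called in either MALINC1 comparison, a panel each with its own axis from 0, with a point for each library (replicate 1 left, replicate 2 right) and a bar at the mean of each group of 2. SNORA80A and SNORA54 stand at 0.828 to 1.25 CPM in DCIS.COM with MALINC1, below 3.59 to 5.27 CPM with the empty vector, and replicate 2 of DCIS.COM with MALINC1 is the lower point in all 10 RNAs called there.

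Relatives of the RNAs that fell had smaller negative values that did not pass the test. SNORA80B, from the polyamine synthesis gene ODC1, is 91.9% identical to SNORA80A, with a longest shared run of 34 bases, shorter than the reads of 76 bases. It had 2.47 and 3.10 CPM with the empty vector and 2.01 and 1.24 CPM with MALINC1, a log2 fold change of -0.78 (adjusted p = 0.026). The 3 SNORA71 copies of SNHG17 are 82.4% to 85.8% identical, and beside the fall of SNORA71D the log2 fold change of SNORA71A was -0.86 (adjusted p = 0.012) and that of SNORA71C -0.71 (adjusted p = 0.024). The differences between copies were not tested.

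The placed sequences of both families, and of the other H/ACA RNAs called, follow 5′ to 3′, with an H box (ANANNA, the match nearest the middle) and the ACA of the 3′ end (in the last 10 bases) in capitals. They are shown so that the copies can be compared letter by letter and the boxes of the class seen in the RNAs that fell. SNORA71C holds another match, agagga after gtgcaggg, at the place where SNORA71A and SNORA71D have theirs marked. The capitals in SNORA71C mark a later match, and which of them is its H box was not tested. SNORA80A is at chr21:33749496-33749631 (minus strand), SNORA80B at chr2:10586840-10586975 (minus), SNORA71A at chr20:37055952-37056085 (minus), SNORA71C at chr20:37058313-37058446 (minus), SNORA71D at chr20:37062508-37062641 (minus), SNORA54 at chr11:2985001-2985123 (minus), SNORA48 at chr17:7478031-7478165 (plus), SNORA8 at chr11:93465527-93465665 (minus), SNORA49 at chr12:132515769-132515904 (plus) and SNORA57 at chr11:62432894-62433042 (plus), all on GRCh37.
SNORA80A: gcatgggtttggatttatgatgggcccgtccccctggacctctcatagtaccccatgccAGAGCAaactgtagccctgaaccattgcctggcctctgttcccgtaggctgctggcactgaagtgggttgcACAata
SNORA80B: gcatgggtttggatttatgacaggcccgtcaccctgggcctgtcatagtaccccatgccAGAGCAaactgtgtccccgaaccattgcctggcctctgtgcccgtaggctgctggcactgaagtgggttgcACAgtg
SNORA71A: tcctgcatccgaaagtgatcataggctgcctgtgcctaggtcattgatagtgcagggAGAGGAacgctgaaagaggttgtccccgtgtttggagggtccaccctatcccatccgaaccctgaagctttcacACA
SNORA71C: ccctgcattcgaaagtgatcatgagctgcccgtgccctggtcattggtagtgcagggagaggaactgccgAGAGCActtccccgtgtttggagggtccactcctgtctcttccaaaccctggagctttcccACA
SNORA71D: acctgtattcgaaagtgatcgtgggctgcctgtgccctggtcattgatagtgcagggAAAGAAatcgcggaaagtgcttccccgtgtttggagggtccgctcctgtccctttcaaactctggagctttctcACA
SNORA54: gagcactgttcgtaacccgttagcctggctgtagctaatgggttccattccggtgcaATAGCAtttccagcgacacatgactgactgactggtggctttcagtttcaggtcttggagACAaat
SNORA48: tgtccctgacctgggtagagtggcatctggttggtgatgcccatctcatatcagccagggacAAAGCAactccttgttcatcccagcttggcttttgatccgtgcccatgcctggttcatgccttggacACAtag
SNORA8: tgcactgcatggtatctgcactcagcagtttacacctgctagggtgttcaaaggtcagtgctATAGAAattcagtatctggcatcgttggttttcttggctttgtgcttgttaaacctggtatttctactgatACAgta
SNORA49: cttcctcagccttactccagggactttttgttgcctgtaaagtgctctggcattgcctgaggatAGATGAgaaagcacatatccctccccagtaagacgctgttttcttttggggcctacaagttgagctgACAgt
SNORA57: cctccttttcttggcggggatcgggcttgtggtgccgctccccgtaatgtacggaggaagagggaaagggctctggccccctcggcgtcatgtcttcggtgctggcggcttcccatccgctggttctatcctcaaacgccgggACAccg
Both boxes were found in 28 of the 32 placed H/ACA RNAs and in 0 of the 36 placed C/D RNAs, and SNORA57 has no ANANNA in its middle part. Each of these 10 RNAs lies within its host gene on the same strand. SNORA80A, SNORA80B, SNORA54 and SNORA49 lie in introns alone, and the other 6 overlap an exon of at least 1 host transcript.

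**Figure D3:**
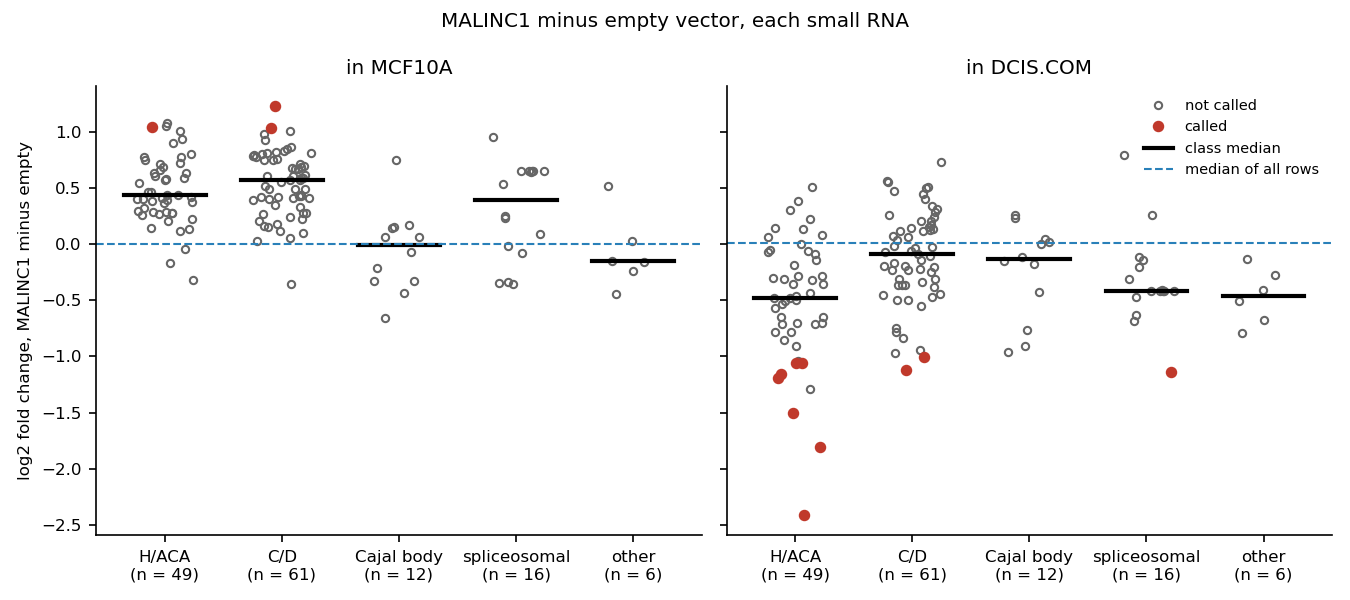
Log2 fold change of MALINC1 against the empty vector in MCF10A (left) and DCIS.COM (right), with a point for each small RNA by class, filled where called, a thick bar at the class median and a dashed line at the median of all rows. In MCF10A the H/ACA and C/D medians lie at 0.44 and 0.57, and in DCIS.COM at -0.48 and -0.09.

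Put against each other in a single contrast, the effects of MALINC1 in the 2 lines differed for 30 members. All 30 had the lower effect in DCIS.COM and 0 the higher, where 5.22% of all rows were called lower and 3.98% higher. They were 18 of 49 H/ACA RNAs, 11 of 61 C/D RNAs and VTRNA1-3, the vault RNA, and 0 of the Cajal body and spliceosomal RNAs. Low rows of the whole table were called lower more often than all rows: 9.06% of all rows below 5 CPM, against 20.8% of the members below 5 CPM. The median difference was -1.02 over the H/ACA RNAs, -0.97 over the spliceosomal RNAs and -0.57 over the C/D RNAs. With single libraries left out these ran from -1.16 to -0.74, from -1.35 to -0.46 and from -0.80 to -0.39, with the values nearest 0 without replicate 2 of MCF10A with the empty vector for the H/ACA RNAs and without replicate 2 of DCIS.COM with MALINC1 for the other two. Leaving out single libraries gave 15 to 41 such members, 15 without replicate 1 of DCIS.COM with the empty vector or without replicate 2 of DCIS.COM with MALINC1, 17 without replicate 2 of MCF10A with MALINC1, and 19 (and 1 higher) without replicate 2 of MCF10A with the empty vector.

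SNORA80A had the largest difference, -3.31 (SE 0.42, adjusted p = 3.92e-05). SNORA84, from the isoleucyl-tRNA synthetase gene IARS1, went from 1.14 and 0.664 to 1.56 and 2.12 CPM in MCF10A and from 2.57 and 2.67 to 1.84 and 0.562 CPM in DCIS.COM, a difference of -2.29 (adjusted p = 0.0058) although it was called in neither line. SNORD94, from the mitochondrial translation gene PTCD3, differed by -1.94 (adjusted p = 0.0055) and SNORD83A, from the ribosomal protein gene RPL3, by -1.71 (adjusted p = 0.0072), at 0.18 to 2.01 CPM and 0.24 to 1.58 CPM over all libraries. SNORD3C, a U3 copy with 5063 to 25083 reads a library, differed by -1.71 (adjusted p = 0.00037), and SNORD3A by -1.58 (adjusted p = 0.0014). Of 19 alternatives, 11 kept the call of SNORD94, 10 that of SNORD83A and 15 that of SNORD3A.

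With the empty vector, most small RNAs had higher CPM in DCIS.COM than in MCF10A. Whether short RNAs were recovered evenly from the samples was not tested. The fold change was positive for 127 of 144 members, with a median of 0.80 against 0.03 for all rows. Of the members, 55 were called higher and 3 lower, where 15.6% and 13% of all rows were. The C/D RNAs gave 29 of 61, the H/ACA RNAs 17 of 49, the spliceosomal RNAs 8 of 16, of which 6 were the U1 rows that are a single signal, the Cajal body RNAs 1 of 12 and the others 0 of 6. Low rows of the whole table leaned the same way: among rows below 5 CPM, 33.1% were called higher with a median of 0.44, against 41.6% with a median of 0.91 for the members below 5 CPM. Leaving out single libraries gave 117 to 129 members positive and 42 to 64 called higher, quantile normalization 32 and a pseudocount of 1 CPM 28.

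Among members at 5 CPM or more in the higher group, the 5 largest rises were those of SNORA80A (2.79), SNORD3A (2.22), SNORD3C (2.21), SNORD74 (2.19) and SNORD104 (2.03, all log2 fold changes). SNORD3A stood at 793 and 575 CPM in MCF10A and 3199 and 3094 CPM in DCIS.COM, and SNORD3C at 281 and 224 against 1169 and 1156 CPM. Not every U3 copy moved so far: SNORD3B-2 had 249 and 178 against 641 and 676 CPM (1.64), and SNORD3D 204 and 142 against 272 and 345 CPM (0.85, adjusted p = 0.0074).

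SNORD74, a C/D RNA of GAS5, had 1.41 and 0.974 CPM in MCF10A and 6.25 and 5.01 CPM in DCIS.COM. SNORD104, whose RefSeq host SNHG25 was not in the table, had 1.62 and 1.15 against 6.06 and 5.59 CPM. The copies SNORA80A and SNORA80B had the largest changes of any member, SNORA80B at 3.32 from 0.207 and 0.221 to 2.47 and 3.10 CPM. The MCF10A values of SNORA80B rest on few reads, so the size of its change is uncertain.

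A few members were lower in DCIS.COM. SCARNA9, a Cajal body RNA from the centrosome gene CEP295, had 8.41 and 7.13 CPM in MCF10A and 3.12 and 4.01 CPM in DCIS.COM and fell by 1.11 (SE 0.15, adjusted p = 1.85e-05), while its relative SCARNA9L had a log2 fold change of -0.12 (adjusted p = 0.47). The other 2 called lower lie below 5 CPM and were chosen after their values were seen. SNORD89, from the ubiquitin ligase gene RNF149, went from 2.03 and 1.64 to 0.466 and 0.430 CPM, and SNORA22 from 2.17 and 1.51 to 0.513 and 0.716 CPM.

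With MALINC1 in both lines the excess of DCIS.COM was smaller: 8 members were called higher and 6 lower, where 14.4% and 12.2% of all rows were, and the median was 0.17. That median was -0.12, with 60 of 144 positive, without replicate 1 of DCIS.COM with MALINC1, 0.39 without its replicate 2, and 0.04 without replicate 1 of MCF10A with MALINC1. The 2 line comparisons share no libraries, and the contrast of the MALINC1 effects given above is also the test of their difference. By scaling the split shifted, to 4 higher and 11 lower with quantile normalization, and to 13 higher and 5 lower with each library divided by all its reads in the table. Leaving out replicate 1 of DCIS.COM with MALINC1 gave 4 higher and 13 lower, leaving out replicate 1 of MCF10A with MALINC1 gave 5 higher and 8 lower, and leaving out its replicate 2 gave 14 higher. SNORD74 at 2.12 and 2.08 against 6.06 and 5.73 CPM (1.46) and SNORD76, also of GAS5, at 2.56 and 2.76 against 6.70 and 5.88 CPM (1.22) had the largest rises among members at 5 CPM or more. The largest falls there were those of the U17 copies. SNORA73B had 391 and 389 CPM in MCF10A and 163 and 101 CPM in DCIS.COM and fell by 1.61 (SE 0.16, adjusted p = 9.58e-07), and SNORA73A had 692 and 665 against 312 and 221 CPM and fell by 1.37 (SE 0.11, adjusted p = 1.22e-07). With the empty vector both RNAs had a log2 fold change of -0.49, with an adjusted p of 0.013 for SNORA73B and 0.0013 for SNORA73A.

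**Figure D4:**
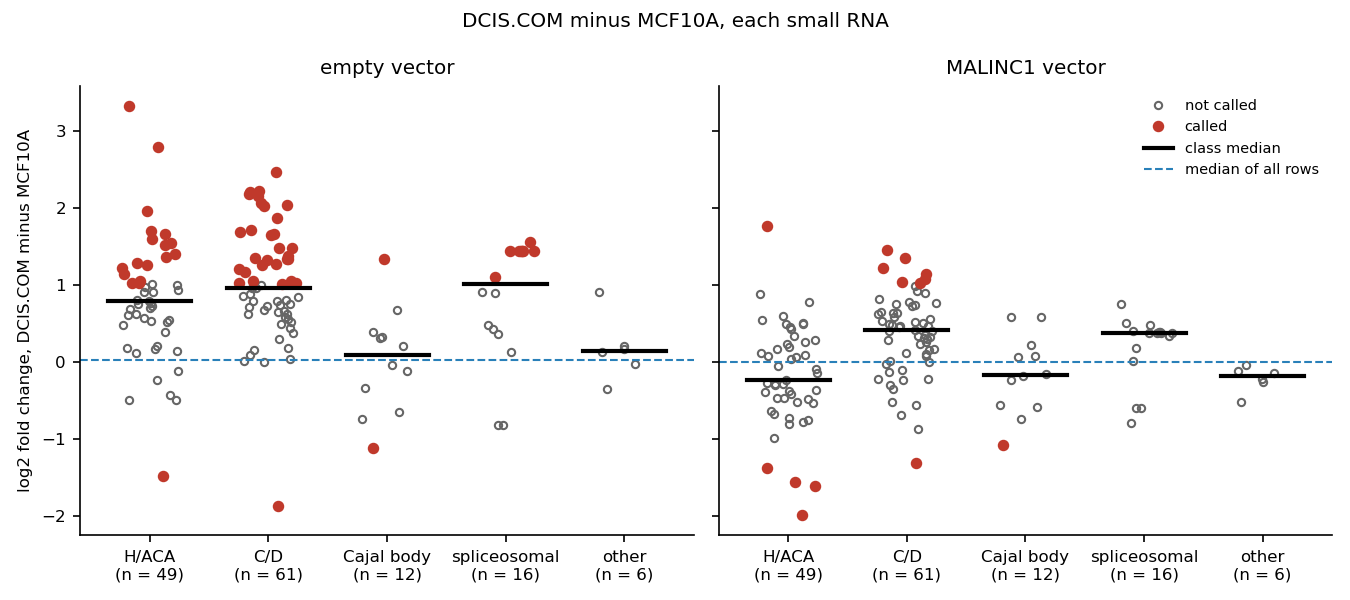
Log2 fold change of DCIS.COM against MCF10A with the empty vector (left) and with MALINC1 (right), with a point for each small RNA by class, filled where called, a thick bar at the class median and a dashed line at the median of all rows. The class medians of the C/D and H/ACA RNAs are 0.96 and 0.79 on the left and 0.42 and -0.23 on the right.

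Host genes accounted for 114 of the 144 members by position, and 112 of these lay in 65 hosts present in the table: 36 in long noncoding hosts (transcribed pseudogenes among them), 28 in ribosomal protein genes and 48 in other protein-coding genes. The strand was checked on GRCh37 for 74. Where several genes held a member, as for 8, the longest in the table was taken. With the empty vector, RCC1, MATR3 and SEC14L1 so taken had line differences of 0.05, 0.26 and 0.68. SNHG3, SNHG4 and SNHG20, passed over for the same members, had 0.94, 2.87 and 1.44. Between the lines with the empty vector, member and host moved alike in part. Over the 112 pairs Pearson's r was 0.58 and Spearman's rho 0.54, as a description across genes that share hosts and libraries, and r was 0.67 over the members of long noncoding hosts, 0.68 over those of other protein-coding hosts and 0.44 over those of ribosomal protein hosts. The 9 C/D RNAs of GAS5, a long noncoding RNA that accumulates in growth-arrested cells, had log2 fold changes of 0.96 to 2.19, all positive, beside 1.82 for GAS5 itself, which went from 50.4 and 47.2 to 175 and 171 CPM (adjusted p = 9.38e-11). SNORA80B stood beside its host ODC1 at 1.87, and SNORD89 at -1.87 beside RNF149 at -1.46. In ribosomal protein genes the members moved more than the hosts, with medians of 0.99 and 0.19, and the fold change of the member was the larger in size in 28 of 28.

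Under MALINC1 in DCIS.COM the changes of member and host showed little relation. Pearson's r was -0.08 over the 112 pairs, and the median of the members was -0.23 and that of the 65 hosts -0.05. Among the hosts 1 was called lower, SEC14L1 (-1.27), and 0 higher. SEC14L1 was taken as the host of SCARNA16 over SNHG20, which had a log2 fold change of -0.15 (adjusted p = 0.46). URB1 had a log2 fold change of 0.32 (adjusted p = 0.00012), in the opposite direction to its SNORA80A, and NAP1L4 0.12 (adjusted p = 0.012) beside SNORA54. EIF4A1 went from 1077 and 1049 to 1002 and 1012 CPM, a log2 fold change of -0.08 (adjusted p = 0.079), beside its members SNORA48, SNORD10 and SNORA67 at -1.20, -1.01 and -0.48. SNHG17 stood at 0.04, TAF1D at -0.05, CSKMT at -0.05 and EP400 at 0.26, each with an adjusted p above 0.01. GAS5 fell by 0.59 (adjusted p = 3.01e-05) while its 9 members had a median of 0.07. In MCF10A r was 0.24, with medians of 0.42 over the members and 0.17 over the hosts. GAS5 rose by 0.30, SNHG8 by 0.42 and RACK1 by 0.20 there (adjusted p = 0.0037, 3.35e-05 and 0.00032 in that order), less than their members SNORD78, SNORA24 and SNORD96A.

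**Figure D5:**
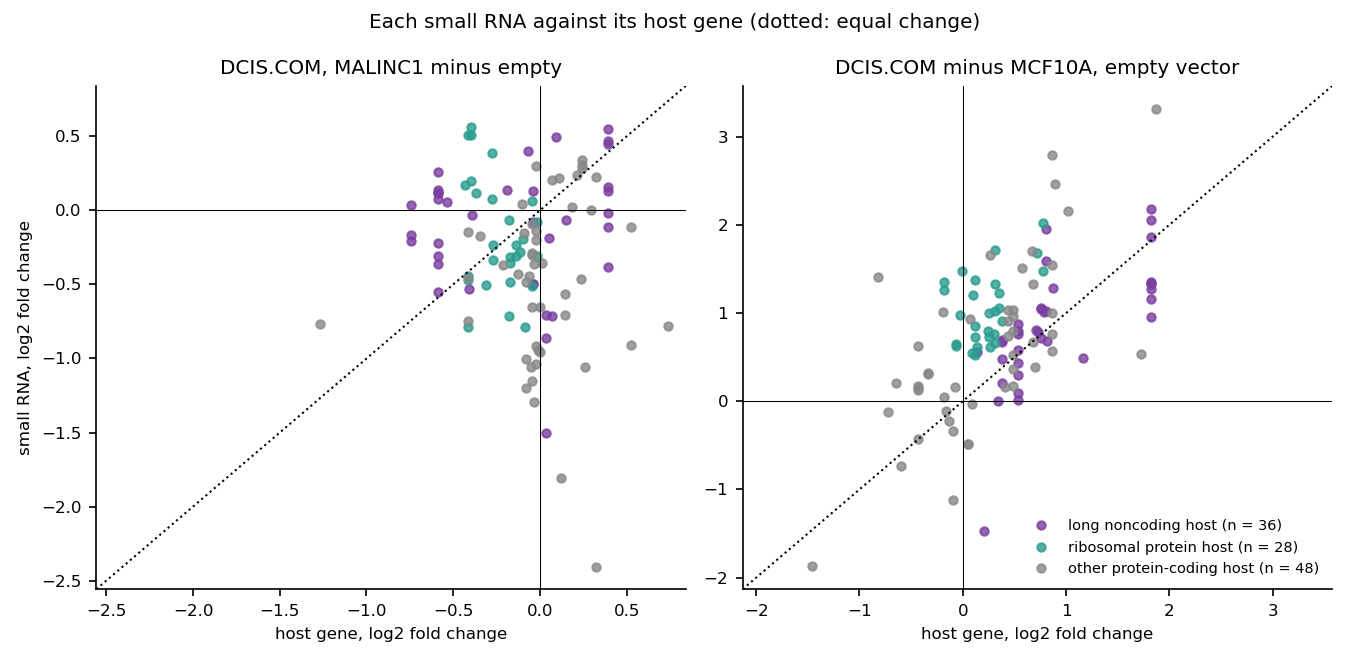
Log2 fold change of each of 112 small RNAs assigned to a host gene (vertical) against that of the host (horizontal), for MALINC1 in DCIS.COM (left) and for DCIS.COM against MCF10A with the empty vector (right), coloured by the kind of host, with a dotted line at equal change. On the left, where r is -0.08, the lowest point is SNORA80A at -2.41 with URB1 at 0.32, and on the right r is 0.58.

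The 6 members outside the 4 larger classes include the most abundant ones, and 0 of them passed the 2-fold threshold in either MALINC1 comparison. RN7SL1 had 69894 and 64122 CPM in MCF10A with the empty vector, 52869 and 60696 with MALINC1, 80942 and 70325 in DCIS.COM with the empty vector and 56717 and 39442 with MALINC1. In DCIS.COM it fell by 0.67 (adjusted p = 0.0049) and RN7SL2 by 0.79 (adjusted p = 0.0015), both under 2-fold, with the lowest values again in replicate 2 of MALINC1. RPPH1 fell there by 0.41 (adjusted p = 0.00061), from 8974 and 8343 to 6742 and 6287 CPM, and RMRP had a log2 fold change of -0.27 (adjusted p = 0.014).

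RN7SK was the member of this group that fell in MCF10A, from 9564 and 9128 to 6534 and 7218 CPM, by 0.44 (adjusted p = 0.0018). In DCIS.COM it stood at 7752 and 6940 against 7464 and 5974 CPM, groups that overlap. VTRNA1-3 had 3.07 and 2.39 against 4.01 and 3.78 CPM in MCF10A and 5.32 and 5.01 against 3.84 and 3.37 CPM in DCIS.COM, opposite changes whose difference of -1.02 passed the test (adjusted p = 0.0020). SCARNA2, a Cajal body RNA with its own promoter, had 94.7 and 88.0 against 113 and 105 CPM in DCIS.COM, a log2 fold change of 0.26 (adjusted p = 0.025), where most members had a negative one.

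Genes for proteins that bind, assemble or transcribe these RNAs, or work with their particles, were read from 9 lists with 105 genes, all in the table. MALINC1 changed 2 of them by more than 2-fold in MCF10A, both upward, a share below the 2.99% of all rows, and 0 in DCIS.COM. The count was 1 without replicate 2 of MCF10A with MALINC1. RRP9, the protein of the U3 particle, went from 23.0 and 23.1 to 45.3 and 47.7 CPM and rose by 1.01 (SE 0.06, adjusted p = 3.53e-08). POLR3G, a subunit of RNA polymerase III, went from 15.04 and 14.4 to 33.5 and 33.7 CPM and rose by 1.19 (SE 0.06, adjusted p = 1.36e-08).

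At any fold 51 of the 105 rose and 9 fell in MCF10A, against 21.5% and 18.1% of all rows, and 30 rose and 6 fell in DCIS.COM, against 16.4% and 16.7%. Of the 10 C/D core proteins 9 rose in MCF10A and 6 in DCIS.COM, with 0 falling in either, and of the 6 H/ACA core proteins 3 and 2 rose and 0 fell. The counts were 10 higher and 1 lower of 21 for snRNP and Cajal body assembly in MCF10A and 3 and 2 in DCIS.COM, 9 and 0 of 22 for the U snRNP proteins and 4 and 1, and 9 and 2 of 15 for RNA polymerase III and 5 and 0. For the RNase P and MRP proteins 5 of 11 rose in MCF10A and 4 in DCIS.COM, for the signal recognition particle 5 of 8 rose and 3 fell in MCF10A and 1 rose in DCIS.COM, for the 7SK partners 1 of 7 fell in MCF10A and 3 rose and 1 fell in DCIS.COM, and for the vault and Ro/La proteins 1 of 5 rose and 2 fell in MCF10A and 2 rose and 2 fell in DCIS.COM. Against MCF10A with the empty vector, DCIS.COM had 10 of the 105 higher by more than 2-fold and 2 lower, shares below the 15.6% and 13% of all rows. No p is given for a list, whose genes were chosen with earlier results of these data known.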

How the data were processed

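RNeasy-purified RNA gave 8 ScriptSeq v2 libraries, sequenced on an Illumina instrument as paired ends of 76 bases. The authors mapped these with Rsubread (genome hg19), summed them over UCSC genes by featureCounts and normalised them in edgeR. The deposited values are log2 CPM of rows that had passed their filter, made with a prior count of 2. Strand setting and the handling of reads with several places are not given in the sources used here. The median RefSeq length was 80 bases for the C/D and 135 for the H/ACA RNAs. How evenly RNAs this short were recovered was not tested, which bears on levels per length and on shares of reads.

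From these values whole reads and plain CPM were recovered for the levels and depths. Differences were fitted on the deposited log2 values with limma 3.58.1 (in R 4.3.3, moderated by eBayes along the mean-variance trend), a mean for each of the 4 groups, and Benjamini-Hochberg adjustment over 13842 rows. Called rows had an adjusted p below 0.01 together with a fold change above 2. Fold changes are on the deposited log2 scale with its prior count, which understates changes of low rows. The fit was tested on simulated data with known changes in 200 rows. The simulated rows were drawn independently, so that test does not cover the joint movement of the members between libraries. Counting error is not the only error, and p-values rest on 2 libraries a group. Each row has a single spread for the 4 groups, drawn towards the trend of all rows. It may be too small for members in DCIS.COM with MALINC1, whose replicates differed by a median of 0.44. The alternatives were other scalings, a pseudocount of 1 CPM, other filters, voom on the recovered reads, each comparison fitted alone, a replicate block and each library left out. Dividing by all reads of the table was added after the data were seen.

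Sequences and positions come from GRCh37 with GENCODE v44lift37 names, on which 92 of 144 members could be placed; the build of the files is hg19. Lengths, names and host neighbours come from RefSeq (GRCh38.p14), in which 144 of 144 members matched. Its coordinates are not printed, but they served to find the genes that hold a member, without regard to strand. For members not placed on GRCh37 the host rests on those coordinates alone. A host was taken as the gene that holds the member in RefSeq and, where placed, lies on the same strand on GRCh37, with none assigned to RNU, RN7S, RMRP, RPPH1 and VTRNA members. Named members are those called under MALINC1 (at most 15 a line) or in the difference (at most 10), the 5 largest rises and falls a line comparison at 5 CPM or more in the higher group, the 3 highest per length in each class, the stand-alone RNAs, their hosts, and partner genes called; others are named to complete a family or list. The members, lists and rules were chosen with earlier results of these data known.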

Additional observations from a re-analysis of the deposited data

Results flagged for a closer look

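For 30 members the effect of MALINC1 differed between DCIS.COM and MCF10A by the interaction term of the limma fit (adjusted p below 0.01 and over 2-fold), and in each the effect was the lower in DCIS.COM. The values are differences of log2 fold changes, DCIS.COM minus MCF10A. Among the 18 H/ACA RNAs they were SNORA80A -3.31, SNORA84 -2.29, SNORA71D -2.19, SNORA54 -1.94, SNORA48 -1.66, SNORA8 -1.62, SNORA24 -1.57, SNORA80B -1.56, SNORA71A -1.49, SNORA63 -1.49, SNORA70 -1.45, SNORA57 -1.34, SNORA49 -1.33, SNORA68 -1.30, SNORA67 -1.19, SNORA73B -1.12, SNORA10 -1.11 and SNORA16A -1.07. Among the 11 C/D RNAs they were SNORD13 -1.95, SNORD94 -1.94, SNORD3C -1.71, SNORD83A -1.71, SNORD10 -1.61, SNORD78 -1.59, SNORD3A -1.58, SNORD96A -1.40, SNORD15B -1.32, SNORD45C -1.24 and SNORD80 -1.12. The vault RNA VTRNA1-3 differed by -1.02. SNORD3A and SNORD3C are both U3 genes and may share reads. Replicate 2 of DCIS.COM with MALINC1, low in 134 of the 144 members against its replicate 1, enters every one of these values, and 15 members were called lower without it. Without it the value was -3.19 for SNORA80A (adjusted p = 0.00054), -1.71 for SNORA54 (adjusted p = 0.0028), -1.499 for SNORA84 (adjusted p = 0.013), -0.93 for VTRNA1-3 (adjusted p = 0.012) and -0.77 for SNORA73B (adjusted p = 0.00066), the last 2 under 2-fold.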

How the results depend on the processing

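For DCIS.COM against MCF10A with MALINC1 the balance of 8 higher and 6 lower turned, as given with that comparison, with quantile normalization and without replicate 1 of either MALINC1 group. Of 218 counts under the alternatives 174 stayed within 1.5 times their value, 20 were larger and 24 smaller, and among the named members 1042 of 1200 calls were the same and 158 were lost. In MCF10A the 3 members called higher became 1 with median-of-ratios scaling, 1 with library sizes without RN7SL, 1 without all small RNAs, 1 with no trend, 0 with a pseudocount of 1 CPM, 5 at an adjusted p below 0.05 and 17 with no minimum fold, and the 0 called lower became 3 with no minimum fold. In DCIS.COM the 10 called lower became 4 with the pseudocount, 3 with its groups fitted alone, 5 with no trend and 24 with no minimum fold, and the 0 called higher became 1 with quantile normalization. For the difference of the effects the 30 called lower became 18 with the pseudocount and 11 with no trend, and the 0 called higher became 1 with library sizes of all reads and 2 with no minimum fold; a fit of its groups alone could not be made, since it uses every group. Between the lines with the empty vector the 55 higher became 32 with quantile normalization and 28 with the pseudocount, and the 3 lower became 0 with the pseudocount and 9 with no minimum fold. With MALINC1 the 8 higher became 4 with quantile normalization, 13 with all reads, 1 with the pseudocount and 20 with no minimum fold, and the 6 lower 11 with quantile normalization and 18 with no minimum fold. The cause was not tested.

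Leaving out 1 library gave 1 to 11 higher and 0 to 0 lower in MCF10A, 0 to 1 higher and 2 to 20 lower in DCIS.COM, 0 to 1 higher and 15 to 41 lower for the difference, 42 to 64 higher and 2 to 3 lower between the lines with the empty vector, and 4 to 14 higher and 5 to 13 lower with MALINC1. The replicate block gave 3 higher in MCF10A, 11 lower in DCIS.COM, 32 lower for the difference and 56 and 8 higher between the lines. Same-numbered libraries had correlations of deviations of -0.067 to 0.038 over all rows and -0.28 to 0.37 over the members, not all above 0.1, so the numbers were not taken as a pairing. No filter gave the same values, since the table was already filtered. Few reads limit the precision of the 101 members below 5 CPM.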
